A study of Mus musculus with 13 samples.

Results

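Urea cycle and glutamate handling genes were followed in RNA of total mouse liver across a course of TAA, by which liver studies usually mean thioacetamide, a hepatotoxin. The set was a list of 10 symbols, Cps1, Otc, Ass1, Asl, Arg1, Nags, Slc25a15, Slc25a13, Glud1 and Gls2, and its members were all probes that carry one of these symbols in the probe annotation. This gave 15 of the 25697 probes on the array, for 9 of the 16590 genes with a symbol. Gls2, the liver-type glutaminase, has no probe under that symbol in the annotation and is not analysed here. Detection on at least 3 arrays was required of a probe, and 13 of the 15 probes passed. The second probes of Otc and Slc25a13 were detected on 0 arrays, while their first probes passed, so all 9 genes were among the 8027 tested.

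The liver came from female C57BL/6 mice and was hybridised to 13 single-colour Illumina MouseRef-8 arrays. There were 3 naive (untreated) samples, 3 after 1 week of TAA, 4 after 4 weeks and 3 after 6 weeks. The labels give no age, dose, route or dosing scheme and name no allele or second agent. Whether replicate samples came from separate animals is not stated, so p-values here reflect only the sample-to-sample spread, which may be technical.

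The urea cycle turns ammonia, which is toxic, into urea, and in the body this happens chiefly in hepatocytes around the portal vein. In the mitochondrion Nags makes the activator of Cps1, Cps1 makes carbamoyl phosphate, and Otc joins it to ornithine to form citrulline. In the cytosol Ass1 and Asl turn citrulline into arginine, and Arg1 splits arginine into urea and ornithine. The carrier Slc25a15 brings ornithine back into the mitochondrion, and Slc25a13 (citrin) exports the aspartate that Ass1 uses. Glud1, glutamate dehydrogenase, releases or fixes ammonia at glutamate. The hepatocytes around the central vein instead take up leftover ammonia into glutamine through Glul.

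Promoter sequence was matched for 6 of the 10 listed genes in a RefSeq table of build GRCm38.p6. The 250 bases before the annotated start are shown for the called genes with an entry, Otc, Slc25a13, Nags and Glud1, and for Ass1, which was not called against naive liver, so that their base composition can be set beside their changes. Each runs 5′ to 3′ on the gene's strand, and capitals mark the only matches found to 7 motifs searched on both strands.
Otc (chrX:10252055-10252304, plus strand): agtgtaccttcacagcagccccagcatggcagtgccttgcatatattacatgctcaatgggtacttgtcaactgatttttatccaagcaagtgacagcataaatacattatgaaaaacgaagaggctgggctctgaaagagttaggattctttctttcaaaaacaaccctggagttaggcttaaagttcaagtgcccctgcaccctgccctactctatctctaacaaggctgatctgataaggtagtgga
Slc25a13 (chr6:6217174-6217423, minus strand): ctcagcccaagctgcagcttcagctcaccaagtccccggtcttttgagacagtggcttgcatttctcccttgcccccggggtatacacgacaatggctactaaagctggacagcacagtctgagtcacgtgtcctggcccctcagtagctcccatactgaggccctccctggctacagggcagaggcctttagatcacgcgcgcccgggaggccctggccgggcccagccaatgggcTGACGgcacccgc
Nags (chr11:102145263-102145512, plus strand): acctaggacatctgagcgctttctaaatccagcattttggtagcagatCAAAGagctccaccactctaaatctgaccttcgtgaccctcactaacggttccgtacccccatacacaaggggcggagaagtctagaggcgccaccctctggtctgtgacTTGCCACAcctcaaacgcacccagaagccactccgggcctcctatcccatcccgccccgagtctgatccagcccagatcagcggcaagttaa
Glud1 (chr14:34310477-34310726, plus strand): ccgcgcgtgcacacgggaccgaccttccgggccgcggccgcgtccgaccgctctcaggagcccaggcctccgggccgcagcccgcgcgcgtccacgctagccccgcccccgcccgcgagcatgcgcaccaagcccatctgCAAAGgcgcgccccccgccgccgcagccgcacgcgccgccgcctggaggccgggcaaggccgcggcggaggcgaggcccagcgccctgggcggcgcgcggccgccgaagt
Ass1 (chr2:31470020-31470269, plus strand): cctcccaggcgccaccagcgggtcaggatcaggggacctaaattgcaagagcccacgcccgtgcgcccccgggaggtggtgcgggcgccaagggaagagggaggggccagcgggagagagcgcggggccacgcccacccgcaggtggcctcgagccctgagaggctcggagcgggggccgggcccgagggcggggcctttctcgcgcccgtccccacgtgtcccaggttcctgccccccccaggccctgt

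The motifs were TTGCNNAA and its variant TTGCNNCA (C/EBP), TGACGTCA and its core CGTCA (the cAMP response element), CAAAG and CAAAGTCCA (HNF4), and TATAAA. The core lies inside TGACGTCA, and CAAAG inside CAAAGTCCA. Slc25a13 held CGTCA on the opposite strand, which reads TGACG as printed, with its first base 13 bases before the start. The letters CGTCA were in 17.8% of the 32851 promoters of the table. Nags held TTGCNNCA 92 bases before its start, a motif in 9.59% of promoters, and CAAAG 202 bases before it. Glud1 held CAAAG 110 bases before its start, and CAAAG was in 48.6% of promoters. Otc and Ass1 held none of the 7 in these windows. Base composition spread widely. The Otc window was 43.6% G and C with 1 CpG and the Glud1 window 82.0% with 46 CpGs, against medians of 52.4% and 6 CpGs over all promoters. By the RefSeq gene table, the last 75 bases of the Otc window and the last 131 of the Slc25a13 window, with its marked TGACG, lie inside the gene's span, so these parts may not be promoter.

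Array brightness differed between groups: mean intensities were 472 to 587 (naive), 177 to 479 (1 week), 456 to 611 (4 weeks) and 195 to 273 (6 weeks), and 8344 to 10980 probes passed detection. An earlier analysis of these data found 7 genes (Erich5, Gm7609, Ifngr2, Pisd-ps2, Prf1, Rhbdl2 and Zxda) whose levels divide the arrays across the groups. Each was higher on 5 arrays, the 3 of 6 weeks with B and C of 1 week, than on the remaining 8. The gap was 1.12 to 2.78 on the log2 scale. The arrays were divided by the mean of these same 7 genes, so the gap is no separate evidence of a division. These 2 array sets have no label. The 6-week group lies wholly in one set and the naive and 4-week groups wholly in the other, so 6 weeks and the set cannot be told apart except through the 3 arrays of 1 week. Changes from a second fit that also holds the set as a term therefore stand beside the main ones. In that fit, 1 week is set against naive liver or 4 weeks through its array A alone, and against 6 weeks through B and C. Its 6-week changes from naive liver take the set difference from the 1-week arrays only, with A on one side.

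At 6 weeks 6 of the 9 measured members were lower than in naive liver and 0 were higher. They were Asl, Otc, Glud1, Nags, Slc25a13 and Cps1, with log2 changes from -3.17 for Asl to -0.69 for Cps1. At 4 weeks Otc and Slc25a13 were lower and Glud1 was higher, and at 1 week only Slc25a13 was lower. Ass1 and Arg1 were not called against naive liver at any time, though both were at 4 and 6 weeks under another scaling given with their values. A call here is a Benjamini-Hochberg adjusted p under 0.05 over all 8027 genes in one limma fit to the 13 arrays. Of all genes tested, 12.3% were called lower and 13.3% higher at 1 week, 12.9% and 15.2% at 4 weeks, and at 6 weeks 16.4% and 22.4%. The median change of the 9 members was -0.29, -0.30 and -1.08 at 1, 4 and 6 weeks, beside 0.02, 0.03 and 0.09 for all genes. Unadjusted p under 0.05 was reached by 4, 3 and 7 of the 9. With the array set as a term, limma called 0 of the 9 at 1 week, 3 at 4 weeks and 0 at 6 weeks, and 1, 3 and 3 had an unadjusted p under 0.05. In that fit 14.3% of all genes were called in either direction at 1 week, 30.1% at 4 weeks and 11.6% at 6 weeks. In bulk liver, fewer hepatocytes and less RNA per hepatocyte cannot be told apart.

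**Figure D1:**
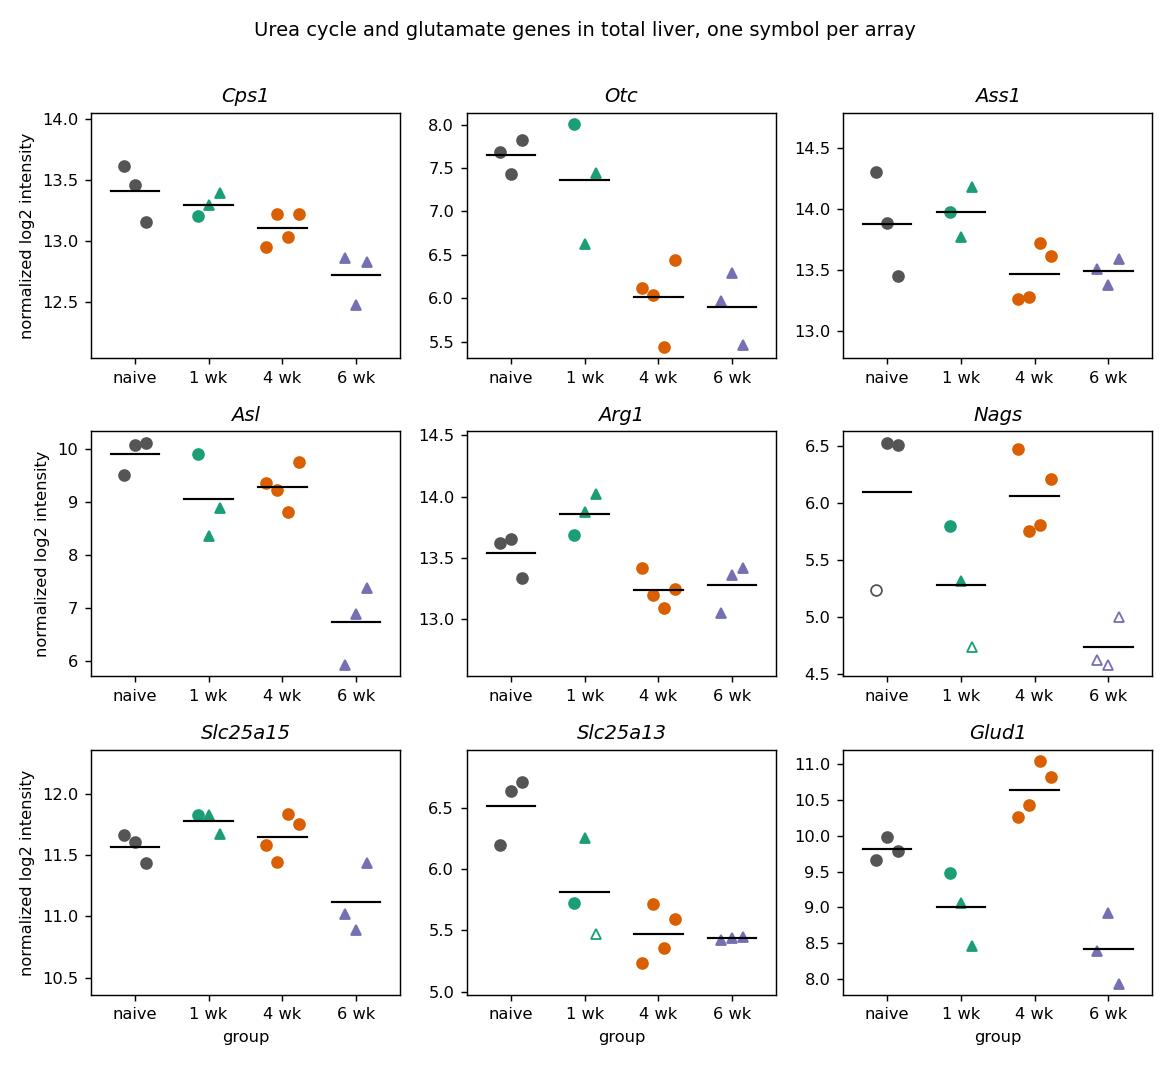
Normalized log2 intensity (y axis) of the tested probe of 9 genes on each of the 13 arrays, by group (x axis). Circles are arrays of the first array set, triangles those of the second, open symbols arrays on which the probe was not detected, and bars group means. Asl lies between 5.92 and 7.38 on the 6-week arrays, below all 10 others, and Glud1 lies between 10.27 and 11.05 on the 4-week arrays, above all 9 others.

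Asl, argininosuccinate lyase, makes arginine and fumarate and had the largest change of the set. Its normalized log2 intensity was 9.51, 10.08 and 10.12 in naive liver, 9.90, 8.36 and 8.89 at 1 week, 9.35, 9.23, 8.82 and 9.75 at 4 weeks, and 5.92, 6.89 and 7.38 at 6 weeks. All 6-week arrays were below every other array, while the 1-week and 4-week arrays overlapped the naive range. The change at 6 weeks was -3.17 ± 0.39 (SE, n = 3 against 3), a level 9.02-fold lower (limma adjusted p = 4.57e-05). At 1 week it was -0.85 ± 0.39 (adjusted p = 0.124) and at 4 weeks -0.62 ± 0.37 (adjusted p = 0.227). The 1-week array of the first set, A, was at the naive mean (a difference of -0.01), and arrays B and C of the second set averaged -1.28 against it. With the set as a term the 6-week change was -1.90 ± 0.61 (adjusted p = 0.0585). Against the 1-week arrays of its own set, B and C, the 6-week mean differed by -1.89. A second Asl probe moved alike, with -1.0, -0.67 and -3.11 at 1, 4 and 6 weeks (adjusted p over all kept probes 0.0807, 0.213 and 4.96e-05).

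Otc, ornithine transcarbamylase, is the mitochondrial enzyme that makes citrulline. Its level was 7.69, 7.43 and 7.83 in naive liver, 8.01, 6.63 and 7.45 at 1 week, 6.12, 6.03, 5.44 and 6.44 at 4 weeks, and 5.97, 6.29 and 5.46 at 6 weeks. Every array of 4 and 6 weeks was below every naive and 1-week array, and the 1-week arrays spread on both sides of the naive ones. The change was -1.64 ± 0.30 at 4 weeks (3.12-fold lower, limma adjusted p = 0.00115) and -1.75 ± 0.32 at 6 weeks (3.35-fold lower, adjusted p = 8.23e-04). The probe was detected on every array, but its levels at 4 and 6 weeks are near background, which limits these folds. The naive and 4-week arrays all belong to the first set, and the set term leaves that change at -1.64 (adjusted p = 6.32e-04). The 6-week change was then -0.78 ± 0.51 (adjusted p = 0.344). At 1 week the change was -0.29 ± 0.32 (adjusted p = 0.552), with array A at 0.36 above the naive mean.

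Cps1, the entry enzyme of the cycle and one of the brightest probes of the set, had 13.61, 13.46 and 13.16 in naive liver and 13.21, 13.30 and 13.39 at 1 week. It had 12.95, 13.22, 13.04 and 13.22 at 4 weeks and 12.86, 12.48 and 12.83 at 6 weeks. All 6-week arrays lay below all naive arrays, as did arrays A and C of 4 weeks. The change was -0.11 ± 0.17 at 1 week, -0.30 ± 0.16 at 4 weeks and -0.69 ± 0.17 at 6 weeks (1.61-fold lower), with limma adjusted p = 0.686, 0.184 and 0.00651. With the set as a term the 6-week change was -0.82 ± 0.31 (adjusted p = 0.0975). With equalised medians the 4-week change was called too, at -0.86 (adjusted p = 0.00123). The second Cps1 probe had -0.11, -0.26 and -0.91 at the 3 times, the last with adjusted p = 5.27e-04 over all kept probes.

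Nags supplies N-acetylglutamate, without which Cps1 is inactive. Its probe was dim, at 5.24, 6.53 and 6.51 in naive liver and 5.80, 5.32 and 4.74 at 1 week. It was at 6.48, 5.76, 5.81 and 6.21 at 4 weeks and at 4.63, 4.58 and 5.0 at 6 weeks. It was detected on 2 of 3 naive arrays, 2 of 3 at 1 week, 4 of 4 at 4 weeks and 0 of 3 at 6 weeks. At 6 weeks it was not above background, so only a bound holds: the naive level was at least 1.82-fold higher (fitted change -1.36 ± 0.34, limma adjusted p = 0.00563). With the set as a term the fitted change was -0.59 ± 0.58 (adjusted p = 0.536), and with medians equalised in place of quantile normalization it was -0.59 (adjusted p = 0.206). The change was -0.81 ± 0.34 at 1 week (adjusted p = 0.0909) and -0.03 ± 0.32 at 4 weeks (adjusted p = 0.957).

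Ass1, argininosuccinate synthase, and Arg1, arginase, act before and after Asl in the cytosol. Ass1 was at 14.30, 13.88 and 13.45 in naive liver, 13.98, 13.77 and 14.18 at 1 week, 13.26, 13.28, 13.72 and 13.61 at 4 weeks, and 13.51, 13.38 and 13.59 at 6 weeks. Its groups overlapped the naive range throughout. The changes were 0.10 ± 0.22, -0.41 ± 0.20 and -0.39 ± 0.22 at 1, 4 and 6 weeks (limma adjusted p = 0.776, 0.148 and 0.174). The 95% interval at 6 weeks ran from -0.85 to 0.08. Arg1 was at 13.62, 13.65 and 13.34 in naive liver, 13.68, 13.87 and 14.02 at 1 week, 13.42, 13.20, 13.09 and 13.25 at 4 weeks, and 13.05, 13.36 and 13.42 at 6 weeks. All 1-week arrays of Arg1 were above the naive ones, with a change of 0.32 ± 0.17 (adjusted p = 0.187). Its changes at 4 and 6 weeks were -0.30 ± 0.16 and -0.26 ± 0.17 (adjusted p = 0.186 and 0.248), and the 95% interval at 6 weeks ran from -0.63 to 0.11. These results rest on the scaling: with medians equalised in place of quantile normalization both were called lower, Ass1 at -0.93 and -0.98 (adjusted p = 0.00454 and 0.00367) and Arg1 at -0.85 and -0.94 (adjusted p = 0.00458 and 0.00286) at 4 and 6 weeks. Without naive array C, Ass1 was also called at both times, at -0.62 and -0.60 (adjusted p = 0.0476 and, rounded, 0.05).

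Of the carriers, Slc25a13 was the one member called at all 3 times. It was at 6.20, 6.64 and 6.71 in naive liver, 5.72, 6.25 and 5.47 at 1 week, 5.23, 5.72, 5.35 and 5.59 at 4 weeks, and 5.42, 5.44 and 5.44 at 6 weeks. Arrays of 4 and 6 weeks were all below the naive ones, and 1 of the 1-week arrays overlapped them. The changes were -0.70 ± 0.22, -1.04 ± 0.20 and -1.08 ± 0.22 (1.63-, 2.06- and 2.12-fold lower, limma adjusted p = 0.0273, 0.00155 and 0.00134). These levels are near background, and the probe was detected on 2 of 3 arrays at 1 week. With the undetected array set at the lowest detected signal the 1-week change was -0.57. The 1-week call was lost without naive array B or C or without 1-week array A or C, at -0.53 to -0.66 (adjusted p 0.0692 to 0.103). With the set as a term the 1-week and 6-week changes were -0.80 ± 0.31 and -1.22 ± 0.39 (adjusted p = 0.1 and 0.06), as large as without it.

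Slc25a15, the ornithine carrier, was at 11.67, 11.61 and 11.43 in naive liver and 11.83, 11.83 and 11.67 at 1 week. It was at 11.58, 11.44, 11.83 and 11.75 at 4 weeks and 11.02, 10.88 and 11.44 at 6 weeks. Its 1-week arrays were all above the naive ones and its 6-week arrays overlapped them by 1 array. The changes were 0.21 ± 0.18, 0.08 ± 0.17 and -0.46 ± 0.18 (limma adjusted p = 0.426, 0.748 and 0.0563). With medians equalised in place of quantile normalization the first of these were -0.26 and -0.36, so the direction at 1 and 4 weeks rests on the scaling. The second Slc25a15 probe, the dimmer one, was at -0.01, 0.32 and -0.95, and passed at 6 weeks (adjusted p = 0.00227 over all kept probes). The 6-week change of the first probe was also called lower in 8 of 26 alternatives, among them equalised medians at -1.09 (adjusted p = 2.59e-04).

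Glud1, glutamate dehydrogenase, was the one member to rise at one time and fall at another. It was at 9.66, 9.98 and 9.79 in naive liver, 9.48, 9.06 and 8.45 at 1 week, 10.27, 10.43, 11.05 and 10.83 at 4 weeks, and 8.38, 8.92 and 7.93 at 6 weeks. All 4-week arrays were above, and all 1-week and 6-week arrays below, the naive ones. The change was -0.81 ± 0.29 at 1 week (limma adjusted p = 0.0525), 0.83 ± 0.27 at 4 weeks (1.78-fold higher, adjusted p = 0.0337) and -1.40 ± 0.29 at 6 weeks (2.64-fold lower, adjusted p = 0.00175). The 4-week call was lost without any one naive array or without 4-week array C or D, at 0.69 to 0.91 (adjusted p 0.0569 to 0.103), and with equalised medians, at 0.59 (adjusted p = 0.156). With the set as a term the 1-week and 6-week changes were -0.33 ± 0.38 and -0.68 ± 0.48 (adjusted p = 0.601 and 0.381). A second, dimmer Glud1 probe gave -1.19, 0.47 and -0.79 (adjusted p over all kept probes 0.0191, 0.292 and 0.08), with the same directions and other calls.

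**Figure D2:**
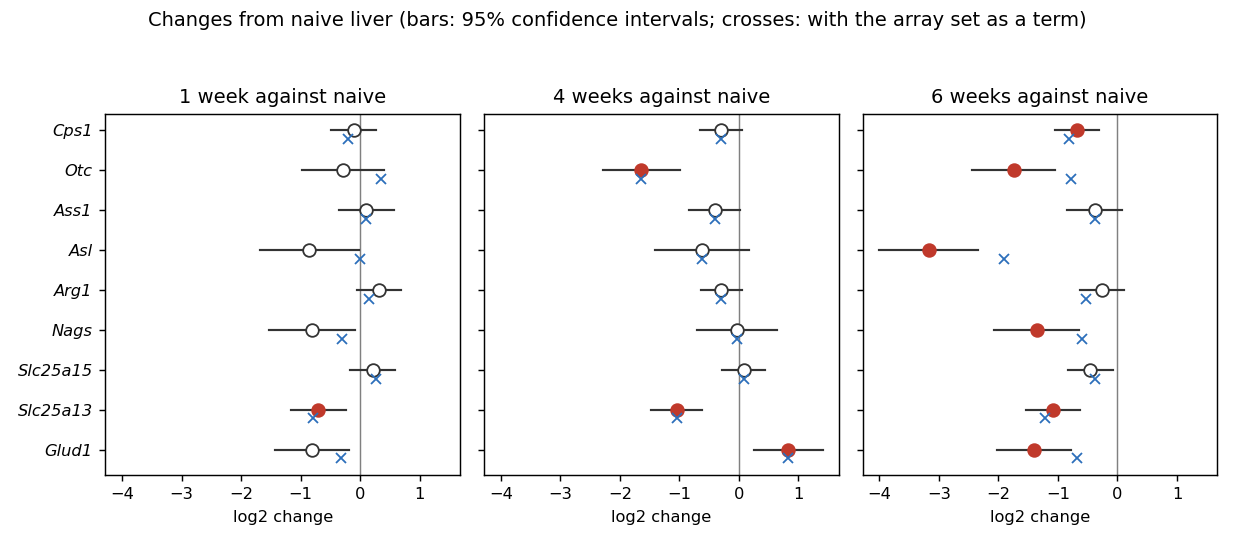
Log2 change from naive liver (x axis) of the 9 genes (y axis) at 1, 4 and 6 weeks of TAA. Circles are the changes with their 95% confidence intervals, filled red where the adjusted p is under 0.05, and crosses are the changes with the array set as a term. At 6 weeks the crosses of Asl, Otc, Nags and Glud1 lie nearer to 0 than the circles, at -1.90, -0.78, -0.59 and -0.68.

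**Figure D3:**
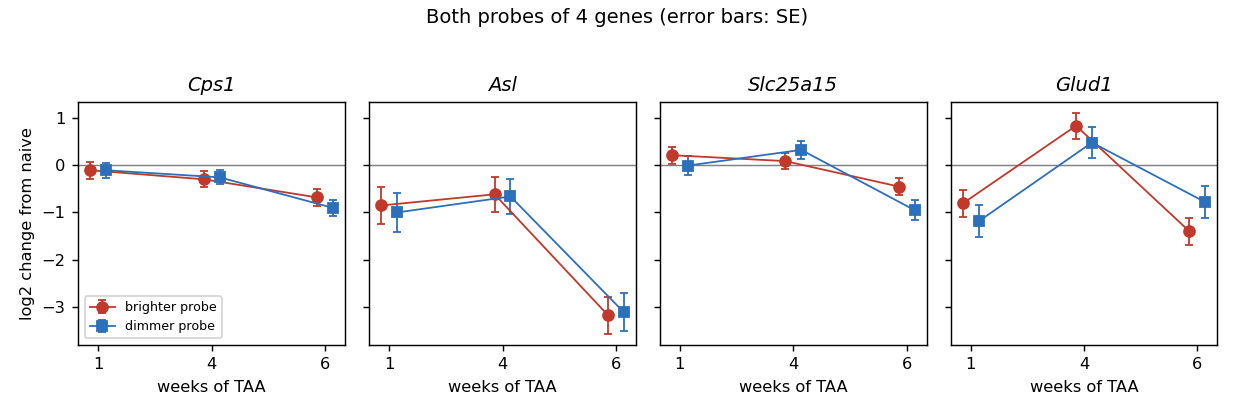
Log2 change from naive liver (y axis) against weeks of TAA (x axis) for the 4 genes with 2 probes past the filter. Red circles are the brighter probe, which was tested, and blue squares the dimmer one, each with its SE. Both Asl probes reach -3.17 and -3.11 at 6 weeks, and both Glud1 probes are above 0 at 4 weeks and below 0 at 1 and 6 weeks.

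The times were also compared with each other. Between 4 weeks and 1 week, Otc fell by 1.35 ± 0.30 and Arg1 by 0.62 ± 0.16 on the log2 scale, and Glud1 rose by 1.64 ± 0.27 (limma adjusted p = 0.0155, 0.0296 and 0.00521). Over all genes 4.41% were called lower and 4.4% higher. Between 6 weeks and 1 week, Asl (-2.32 ± 0.39), Otc (-1.46 ± 0.32), Slc25a15 (-0.66 ± 0.18) and Arg1 (-0.58 ± 0.17) were lower (adjusted p = 0.0044, 0.0137, 0.0344 and 0.0479), where 3.9% of all genes were called lower and 5.28% higher. Between 6 and 4 weeks, Asl (-2.55 ± 0.37), Glud1 (-2.23 ± 0.27) and Nags (-1.33 ± 0.32, a level at least 1.79-fold lower) were lower (adjusted p = 0.00178, 0.00121 and 0.0269). There 3.09% of all genes were called lower and 2.22% higher. The levels of Otc at 4 and 6 weeks did not differ beyond their spread (-0.11 ± 0.30, adjusted p = 0.883), and neither did those of Slc25a13 (-0.04 ± 0.20, adjusted p = 0.943). Both genes were near background at these times, which limits what this comparison can show. With the set as a term, Otc was at -2.0 between 4 weeks and 1 week, which sets the 4-week arrays against 1-week array A alone. Asl between 6 weeks and 1 week (-1.89 ± 0.38, limma adjusted p = 0.0158) stayed called, there against arrays B and C. The comparisons between times share groups with those against naive liver and do not support them independently.

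In order of mean level, Asl ran naive, 4 weeks, 1 week and 6 weeks (9.90, 9.29, 9.05 and 6.73). No difference among the first 3 was called, though 1 week against naive had an unadjusted limma p of 0.046. Otc ran naive, 1 week, 4 weeks and 6 weeks (7.65, 7.36, 6.01 and 5.90), with its one step past the threshold between 1 and 4 weeks. Glud1 ran 4 weeks, naive, 1 week and 6 weeks (10.64, 9.81, 9.0 and 8.41), with a called step only between 4 weeks and naive. By the Euclidean distance of the 3 changes from naive, over the 4 groups, the genes most like Asl were Cyp2b10 (0.44), Hacl1 (0.68) and Ces1b (0.85). The nearest to Otc were Ifi47 (0.15), Got1 (0.18) and Gbp2b (0.22), of which Got1, cytosolic aspartate aminotransferase, was in the list of glutamate enzymes. The nearest to Glud1 were Gm5643 (0.27), Tpm3 (0.31) and Ncoa4 (0.38). These distances describe group means and carry no test.

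Beyond the cycle itself, 80 further genes of nitrogen handling were listed in 6 groups, of which 71 had a probe and 57 were tested. Of these 17 were lower and 10 higher at 1 week, 22 and 6 at 4 weeks, and 27 and 7 at 6 weeks. Their median change was -0.14, -0.48 and -0.37. Of all genes tested, the same fit called 12.3% lower and 13.3% higher at 1 week. It called 12.9% and 15.2% at 4 weeks, and 16.4% and 22.4% at 6 weeks. These shares also stand beside the counts by list and by marker list below. With the array set as a term the called genes of the lists numbered 14 at 1 week, 28 at 4 weeks and 15 at 6 weeks. That fit called 14.3%, 30.1% and 11.6% of all genes in either direction. The lists were drawn from general knowledge of the pathway, but with earlier results of these data known. Their counts carry no test of the list as a whole.

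Among 11 enzymes that supply ammonia or interconvert glutamate, 3 were lower and 2 higher at 1 week, 5 and 2 at 4 weeks, and 6 and 2 at 6 weeks. Oat, ornithine aminotransferase, which drains ornithine toward glutamate, had -3.03 ± 0.37, -4.43 ± 0.34 and -3.99 ± 0.37 at 1, 4 and 6 weeks (limma adjusted p = 1.27e-04, 1.45e-06 and 4.29e-06). Prodh, proline dehydrogenase, had -1.77 ± 0.26, -2.57 ± 0.24 and -2.87 ± 0.26. Glul, glutamine synthetase, was detected on all naive arrays and on no TAA array, and was at least 1.93-, 2.43- and 2.16-fold lower (adjusted p = 9.13e-04, 9.64e-05 and 7.45e-05). Asns, asparagine synthetase, was detected on no naive array and was at least 4.79-fold higher at 1 week (adjusted p = 4.43e-05). Its fitted changes at 4 and 6 weeks were 0.66 and 0.62 (adjusted p = 0.0998 and 0.123). Gpt2, mitochondrial alanine aminotransferase, was higher at all 3 times (0.61, 0.49 and 0.82). Aldh18a1, which starts proline synthesis, was at least 1.26- and 1.68-fold higher at 4 and 6 weeks. With the array set as a term the 6-week changes of Oat, Prodh, Glul, Gpt2 and Aldh18a1 were -4.74, -3.13, -2.41, 0.70 and 2.03.

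Of 10 nitrogen transporters, 4 were lower at each time, with 1, 0 and 1 higher. Slc1a2, a glutamate transporter, changed by -4.33 ± 0.31 at 1 week, where it was detected on 2 of 3 arrays. It was then detected on no array, at least 34.6-fold lower at 4 weeks and 30.8-fold lower at 6 weeks (limma adjusted p = 4.24e-08 and 9.15e-08). Rhbg, an ammonium transporter, was at least 2.20-fold lower at 1 week. It changed by -1.48 ± 0.19 at 4 weeks, where it was detected on 2 of 4 arrays. At 6 weeks it changed by -1.28 ± 0.21 and was detected on 1 array. Slc7a2, a cationic amino acid transporter that carries arginine and ornithine, had -1.21 and -1.42 at 4 and 6 weeks. Slc1a4, a neutral amino acid transporter, had 1.41 and 1.28 at 1 and 6 weeks. With the array set as a term the 6-week changes of Slc1a2, Rhbg, Slc7a2 and Slc1a4 were -6.96, -1.29, -1.75 and 1.69.

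Of 10 genes of the arginine, polyamine and pyrimidine branches, 2 were lower and 4 higher at 1 week, 2 and 3 at 4 weeks, and 3 and 3 at 6 weeks. Srm, spermidine synthase, rose by 1.26 ± 0.23, 1.24 ± 0.21 and 1.29 ± 0.23. Cad, whose enzyme makes carbamoyl phosphate for pyrimidines in the cytosol, was not detected in naive liver and was at least 1.89-, 1.53- and 1.97-fold higher (limma adjusted p = 0.00468, 0.0113 and 0.00186). Ddah1, which breaks down methylarginines, fell by 1.16 and 1.22 on the log2 scale at 4 and 6 weeks. Gamt, the last enzyme of creatine synthesis, had -0.72, -0.57 and -0.64 at 1, 4 and 6 weeks. Umps, of pyrimidine synthesis, was detected on 2 of 3 arrays at 1 week and 1 of 3 at 6 weeks. It had -1.19 and -1.83 at these times, and -0.36 and -0.58 with the set as a term. In that fit the 6-week changes of Srm, Cad, Ddah1 and Gamt were 0.77, 0.73, -1.78 and -0.57. The folds given for Cad compare group means without the set term. Of 6 support enzymes and deacylases, 1 was lower and 2 higher at 1 week, 0 and 1 at 4 weeks, and 2 and 1 at 6 weeks. Mdh2, mitochondrial malate dehydrogenase, rose by 1.18, 1.21 and 1.65. Mdh1, its cytosolic form, had -1.36 at 6 weeks. Fh1, fumarate hydratase, had 0.59 at 1 week, and Sirt5, which removes acyl groups from Cps1, had -0.96 and -0.80 at 1 and 6 weeks. With the set as a term the 6-week changes of Mdh2, Mdh1 and Sirt5 were 0.67, -0.94 and -1.13.

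Of 11 enzymes of amino acid catabolism, 2 were lower at 1 week and 8 at both 4 and 6 weeks, with 1, 0 and 0 higher. Agxt, the peroxisomal alanine-glyoxylate aminotransferase, had -1.16 ± 0.21, -2.0 ± 0.19 and -2.45 ± 0.21 (limma adjusted p = 0.00141, 9.38e-06 and 2.56e-06). Hpd, of tyrosine breakdown, had -1.65 and -1.85 at 4 and 6 weeks, and Cth, cystathionine gamma-lyase, had -1.99 at 6 weeks. Bcat2, of branched-chain amino acids, had -0.53, -0.95 and -0.69 at 1, 4 and 6 weeks, and Tdo2, of tryptophan breakdown, rose by 1.11 at 1 week. With the array set as a term the 6-week changes of Agxt, Hpd, Cth and Bcat2 were -2.79, -2.04, -1.37 and -0.41. Of 9 regulators, 5, 3 and 4 were lower and 0 higher. Gcgr, the glucagon receptor, had -1.32, -1.48 and -1.05 at 1, 4 and 6 weeks. Cebpa, a hepatocyte transcription factor, had -1.07, -0.76 and -1.68. Ppargc1a, a coactivator of fasting genes, had -0.77 and -1.11 at 1 and 4 weeks and was at least 1.99-fold lower at 6 weeks. It was detected on 2 arrays at 1 week and 2 at 4 weeks. With the array set as a term the 6-week changes of Gcgr, Cebpa and Ppargc1a were -1.80, -1.03 and -1.29.

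**Figure D4:**
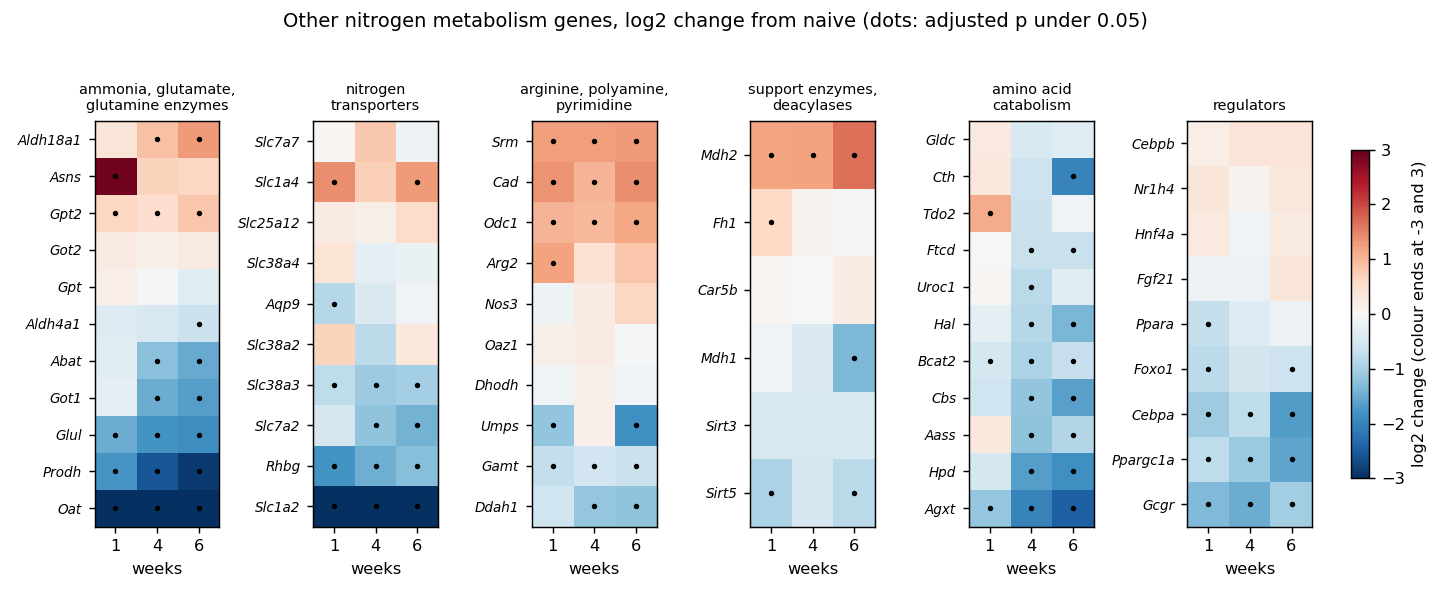
Log2 change from naive liver, as colour from -3 to 3 with larger changes at the end colours, of the 57 tested genes in 6 lists (rows) at 1, 4 and 6 weeks (columns). Dots mark an adjusted p under 0.05. Oat and Slc1a2 are at the blue end of the scale at all 3 times, and 8 of 11 amino acid catabolism enzymes are lower at 4 and 6 weeks.

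The tissue carried its defining markers. Of 10 general hepatocyte markers 8 had a probe, Fgb was detected on no array, and 7 were tested, of which 0, 1 and 0 were lower and 0 higher at 1, 4 and 6 weeks by limma, with 1, 1 and 1 at an unadjusted p under 0.05. Their summed level ranged from 92016 to 120262 in naive liver, 116619 to 129498 at 1 week, 98737 to 105032 at 4 weeks and 115975 to 135289 at 6 weeks. Alb, albumin, was at 0.25, -0.47 and -0.09 (adjusted p = 0.507, 0.146 and 0.805). Of 8 tested periportal markers 2, 5 and 5 were lower and 1 was higher each time, and their summed level went from 21246 to 22780 in naive liver to 11926 to 15235 at 6 weeks. Of 10 pericentral markers 9, 7 and 9 were lower and 0, 0 and 1 higher, with a sum of 49397 to 55359 in naive liver and 17390 to 19844 at 6 weeks. Glul, Oat, Slc1a2 and Rhbg, given above among the nitrogen genes, are also pericentral markers. Of 7 macrophage markers 0, 0 and 1 were lower and 2, 3 and 2 higher, with sums of 1642 to 1804 in naive liver, 2021 to 4914, 2168 to 3016 and 1665 to 2996. Of 7 stellate cell markers 2, 4 and 6 were higher and 0 lower. Of 5 cholangiocyte markers 1, 1 and 3 were higher and 0 lower, and their summed level went from 158 to 173 in naive liver to 538 to 649 at 6 weeks. Both tested neutrophil markers were higher at 6 weeks, with sums of 196 to 387 in naive liver and 573 to 1049 at 6 weeks, while Mpo, Ngp and Camp were detected on no array. All 3 tested markers of alternatively activated macrophages were lower at 6 weeks. Of 5 endothelial markers 1, 1 and 2 were lower and 1, 0 and 1 higher. Of the 5 kidney and intestine markers with a probe, all 5 (Umod, Slc34a1, Slc22a12, Fabp2 and Vil1) were detected on no array. Of 2 tested pancreas markers 0, 1 and 1 were lower and 0 higher. Of 4 erythroid markers 1, 0 and 0 were lower and 0 higher. The 1 tested lymphocyte marker was lower at 6 weeks. Also detected on no array were Cd5l (macrophage), Clec10a (alternatively activated macrophage), Lrat (stellate cell) and Kdr (endothelial). Cd79a, Ms4a1 and Nkg7 (lymphocyte) and Prss2 and Ctrb1 (pancreas) were not detected either. All these marker calls come from the fit without the array set as a term. The 6-week arrays lie wholly in the second set, so the 6-week marker changes cannot be told apart from the set. The part of these other cells, and of the zones, in the members' changes was not tested.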

How the data were processed

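RNA of 13 total liver samples was measured on 1-colour BeadArrays. The raw table deposited by the authors holds, per the file headers, bead intensity per probe, not normalized, and beside it a detection p-value that ranks the signal among negative controls. The submitters' processing notes name GenomeStudio, with a version not given in the sources used. Raw columns carry a group and a letter and were grouped by heading. They could not be matched to the replicate numbers of the labels.

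The deposited value table gives log2 values centred near 0 per probe; how they were normalized and centred is not stated. Across probes its group differences followed those of the raw table (r = 0.998, slope 0.905), which gave its scale and direction. Its mean was 0.00751. Its column medians were -8.67e-04, -6.07e-04 and -9.75e-04 (naive), -0.00176, -0.00116 and -4.85e-04 (1 week), -7e-04, 2.87e-04, 1.98e-04 and -1.98e-04 (4 weeks), and 0.00115, 0.00134 and 3.67e-05 (6 weeks). It served as an alternative only.

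Intensities were background-corrected and quantile-normalized with neqc (offset 16) in limma 3.58.1 under R 4.3.3. A probe was kept if its detection p-value fell below 0.01 on 3 or more arrays (11212 probes), and the brightest probe of each gene was tested. Symbols of the annotation supplied were brought up to date with a RefSeq gene table, through the gene ID (23962 probes) or the accession (9 probes). This changed 8 symbols, and 7 probes kept the annotation symbol for want of a match. In the end 23978 probes had 1 symbol and 1719 had none. One fit (lmFit, eBayes) over 13 arrays gave 6 comparisons with two-sided moderated tests. Tests were checked on simulated data with independent noise and changes placed only at 6 weeks. The simulation held no array sets, brightness differences or detection floor, so it does not bear on these. A gene detected on no array of a group was given a bound: the brighter group's mean log2 value was set against the dimmer group's, with each dim array raised to its lowest detected signal where that was higher. For arrays, signal over background and the number of arrays limit precision.

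The members and lists were chosen with earlier results of these data known. All members are named. From each other list and comparison with naive liver, the called genes that rose most (2) and fell most (2) are named. From marker lists, those detected on no array or defining the cell type are named. Likeness was computed for the 3 members with the largest mean absolute change. Same-numbered samples did not deviate together (r from -0.339 to 0.237 over 18 pairs, 2 of them over 0.1), so samples were not treated as paired.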

Additional observations from a re-analysis of the deposited data

Results flagged for a closer look

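The change from naive liver differed between times of TAA for 6 members, by limma's test of the difference itself. Between 4 weeks and 1 week the log2 difference was -1.35 for Otc, -0.62 for Arg1 and 1.64 for Glud1 (adjusted p = 0.0155, 0.0296 and 0.00521). Between 6 weeks and 1 week it was -1.46 for Otc, -2.32 for Asl, -0.58 for Arg1 and -0.66 for Slc25a15 (adjusted p = 0.0137, 0.0044, 0.0479 and 0.0344). Between 6 and 4 weeks it was -2.55 for Asl, -1.33 for Nags and -2.23 for Glud1 (adjusted p = 0.00178, 0.0269 and 0.00121).

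With the array set as a term, Asl between 6 weeks and 1 week stayed under 0.05 (limma adjusted p = 0.0158). Otc between 4 weeks and 1 week was then at -2.0, a value that rests on 1-week array A alone. Arg1 between 6 weeks and 1 week lost its call under 19 of 26 alternatives, among them leaving out any one array of any group, where its adjusted p reached 0.169 without 6-week array A. Arg1 between 4 weeks and 1 week lost its call without 1-week array C or 4-week array B, C or D. Otc lost its call against 1 week without 1-week array A at both later times, and at 6 weeks also without 6-week array C. Slc25a15 lost it without 1-week array A or 6-week array A or B. Nags between 6 and 4 weeks lost it without 4-week array A or D or any one 6-week array.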

How the results depend on the processing

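Over the alternatives run, 1252 of the members' changes kept their direction and side of the threshold, 78 lost a call, 41 gained one and 33 turned direction, all of the last from values not called. The number of members called at 1 week was 2 without background correction, with an offset of 50, with an intensity trend, or with every kept probe tested, and 3 with equal medians (Cps1, Asl and Glud1). It was 0 with only the 2 groups compared, with the array set as a term, or in the deposited value table with the replicate number as a block. The replicate block moved no other count by over 1.5 times. Equal medians gave 5 members at 4 weeks (Otc, Slc25a13, Cps1, Ass1 and Arg1) and 5 between 4 weeks and 1 week. The array set as a term gave 0 members at 6 weeks, 1 between 4 weeks and 1 week, 1 between 6 weeks and 1 week and 0 between 6 and 4 weeks, where it called 134, 425 and 0 of all 8027 genes. It also gave 14 and 15 other nitrogen genes at 1 and 6 weeks. Between 6 weeks and 1 week only the 2 groups compared gave 1 and array weights 2, and every kept probe tested gave 5 between 6 and 4 weeks. Without 1-week arrays B and C, chosen after the data were seen, 1 member was called between 4 weeks and 1 week and 2 between 6 weeks and 1 week, and 16 other genes at 1 week. Leaving out 1 array at a time gave 0 to 3 members at 1 week and 1 to 3 between 6 weeks and 1 week. For other counts it gave 2 to 3 at 4 weeks, 6 to 7 at 6 weeks, 2 to 3 between 4 weeks and 1 week and 2 to 3 between 6 and 4 weeks.

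Direction turned as follows, always in a value not called. With equal medians the median of all genes was -0.0954 between 4 weeks and 1 week and 0.11 between 6 and 4 weeks, against 0.0151 and 0.0527 in the main setting. Ass1 was then at -0.14 and Slc25a15 at -0.26 at 1 week, and Nags at 0.0197 and Slc25a15 at -0.36 at 4 weeks. Between 6 and 4 weeks Otc was then at 0.21, Ass1 at -0.0494, Arg1 at -0.0814 and Slc25a13 at 0.44. With the array set as a term Otc was at 0.36 at 1 week, Asl at -0.61 between 4 weeks and 1 week, and Otc at 0.87 and Arg1 at -0.23 between 6 and 4 weeks. With 1-week arrays B and C left out, Otc at 1 week was at 0.36 and Asl between 4 weeks and 1 week at -0.61. These repeat the values with the set term, since both reduce 1 week to array A, and are not a separate check. In the value table with the replicate block Otc was at 0.0135 between 6 and 4 weeks. Leaving out 1 array moved Otc at 1 week from -0.61 to 0.0770, Ass1 at 1 week from -0.12 to 0.31, Nags at 4 weeks from -0.46 to 0.19 and Asl between 4 weeks and 1 week from -0.11 to 0.66. Between 6 and 4 weeks it moved Otc from -0.30 to 0.12, Ass1 from -0.0468 to 0.11, Arg1 from -0.0367 to 0.15 and Slc25a13 from -0.12 to 0.0442. For the 6 calls at 6 weeks, the fit with the array set gave the highest adjusted p of the 26 alternatives, and no other alternative ended a call except equal medians for Nags. The cause of these shifts was not tested. Nags, Slc25a13 and, at 4 and 6 weeks, Otc lie near background, which limits their folds, and the 6-week arrays were among the dimmest.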
